A study of Mus musculus with 18 samples.

Results

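Oxidative phosphorylation is the set of reactions by which mitochondria turn the energy of reduced coenzymes into ATP, and its protein subunits are encoded in 2 genomes. The genes described here were taken by name from the annotation: protein-coding genes with symbols starting Nduf (followed by a, b, c, s or v and a number), Sdha to Sdhd, Uqcr, Cox4 to Cox8 or Atp5, and the mitochondrially encoded mt-Nd, mt-Co, mt-Atp and mt-Cytb genes. The names gave 98 gene identifiers of 55335 in the count files, 85 nuclear and 13 mitochondrial. They were read in 18 bulk RNA-seq libraries of O9-1 cells, a wild-type mouse neural crest cell line kept in osteoblast differentiation medium. Control (Ctrl) cells received a non-targeting siRNA and were cultured without added FGF2 (Ctrl+vehicle) or with it (Ctrl+FGF2), and a further group received siRNA against Yap and Taz together with FGF2 (Y/T dKD+FGF2). Each group had 3 libraries after 2.5 days (d2.5) and 3 after 5 days (d5). The FGF2 effect is Ctrl+FGF2 against Ctrl+vehicle, and the knockdown effect is Y/T dKD+FGF2 against Ctrl+FGF2. These comparisons share the Ctrl+FGF2 libraries. No group received the Yap and Taz siRNA without FGF2. The labels do not say whether replicates were separate cultures, so p-values measure the spread between these libraries, which may be technical.

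Complex I (NADH dehydrogenase) and complex II (succinate dehydrogenase) pass electrons to ubiquinone, complex III passes them on to cytochrome c, and complex IV hands them to oxygen. Complexes I, III and IV pump protons, and complex V (ATP synthase) lets them flow back to make ATP. Mitochondrial DNA encodes core subunits of complexes I, III, IV and V, while complex II is wholly nuclear. The 13 mitochondrial mRNAs are cut from long transcripts made by a single polymerase, Polrmt, with Tfam and Tfb2m, so they are under other control than the nuclear subunit genes. Among the nuclear members 37 belonged to complex I, 4 to complex II, 8 to complex III, 18 to complex IV and 18 to complex V. Of the mitochondrial members 7 belonged to complex I, 1 to complex III, 3 to complex IV and 2 to complex V.

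The libraries held 10377151 to 14698525 counts in genes. Yap1 (Yap) stood at 140.1, 134 and 136 CPM (counts scaled to library size with TMM factors) in Ctrl+FGF2 and 68.5, 69.5 and 73.6 CPM in Y/T dKD+FGF2 at d2.5, so the knockdown was partial. Wwtr1 (Taz) stood at 152, 149 and 149 CPM in Ctrl+vehicle, 236, 233 and 238 CPM with FGF2 alone and 149, 138 and 143 CPM after knockdown with FGF2 at d2.5, a log2 fold change of -0.06 ± 0.04 (SE, adjusted p = 0.122) after knockdown against Ctrl+vehicle. Of 11 neural crest markers 8 passed the filter on low counts at d2.5, and Sox10 and Foxd3 were at or near 0. With FGF2 at d2.5, 4 of the 8 were called lower and 0 higher, beside 34.1% and 33.5% of all genes. The sum of the 11 went from 424 to 451 CPM in Ctrl+vehicle to 292 to 299 CPM in Ctrl+FGF2. At d5, 4 were called lower and 3 higher with FGF2, beside 23.7% and 23.5% of all genes. Markers of skeletal muscle summed to at most 0.0865 CPM, and those of leukocytes, endothelium and epithelium to at most 4.33 CPM, in any library. Those of adipocytes (Adipoq, Fabp4, Plin1) summed to 26.9 to 30.4 CPM in Ctrl+vehicle and 34.8 to 37.3 CPM in Ctrl+FGF2 at d2.5. Of these only Fabp4 passed the filter. It was called higher with FGF2 (0.32) and lower under knockdown (-0.35) at d2.5, and lower with FGF2 at d5 (-0.69). The summed osteoblast markers (Runx2, Sp7, Alpl, Ibsp, Bglap, Col1a1) moved with FGF2, from 14194.5 to 14329.7 CPM in Ctrl+vehicle to 2446 to 2584 CPM in Ctrl+FGF2 at d2.5. In Y/T dKD+FGF2 at d2.5 the sum was 2289 to 2442 CPM. Of the 5 tested under knockdown at d2.5, Sp7 (0.46) and Ibsp (0.93) were called higher and Col1a1 lower (-0.14), and Runx2 and Alpl were not called. Over all genes tested, 10.8% were called higher and 13.6% lower in that comparison. At d5 4 of the 6 were called lower and 2 higher with FGF2, beside 23.7% and 23.5% of all genes. Under knockdown at d5 all 6 were called higher, beside 15.6% of all genes, with a median log2 fold change of 0.72. Of the 4 pericyte and smooth muscle markers only Acta2 passed the filter of either day, and it fell with FGF2 by 3.16 on the log2 scale at d2.5 and rose by 0.49 at d5. Under knockdown Acta2 fell by 0.68 at d2.5 and by 0.41 at d5. The part of these markers in the results below was not tested. In bulk RNA a change in the mix of cells and a change in RNA per cell cannot be told apart.

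Of the 98 identifiers, 89 passed the filter at d2.5 and 90 at d5. Those that did not were the tissue-restricted isoforms Ndufa4l2, Cox4i2, Cox6b2, Cox7a1, Cox7b2, Cox8b and Cox8c, at d2.5 also Cox6a2, and a second locus named Atp5o. That second Atp5o locus overlaps the main one and held 0 counts in every library, so reads that lie on both are not counted for either. As RPKM, which scales counts to exon length and library size and was averaged over all libraries, the nuclear members ran from 0 for Cox7b2 and Cox8c to 217 for Atp5b, the catalytic beta subunit of ATP synthase, followed by Atp5a1 with 175 and Cox4i1 with 149. Nuclear counts could be split with near-identical copies for some members. At least 1 stretch of 75 bases was shared with another gene's transcripts for 32 of the 85, and more than 20% of such stretches were shared for 10 of them, among them Ndufb4, Ndufs3, Ndufs5 and Cox7c, whose partners are processed pseudogenes, and Ndufa13, whose partner is the overlapping gene Tssk6.

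Summed over genes, the mitochondrial mRNAs were lower and the nuclear ones higher with FGF2 on both days. The 13 mitochondrial mRNAs took 0.944%, 0.642% and 0.724% of all gene counts in the Ctrl+vehicle libraries at d2.5, 0.447%, 0.405% and 0.442% with FGF2 alone, and 0.479%, 0.588% and 0.532% after knockdown with FGF2. Every Ctrl+FGF2 library lay under every other library of that day, and every Y/T dKD+FGF2 library lay under every Ctrl+vehicle library. At d5 the shares were 0.621%, 0.707% and 0.679% in Ctrl+vehicle, 0.533%, 0.534% and 0.525% with FGF2 alone, and 0.584%, 0.547% and 0.594% after knockdown with FGF2, in the same order and again without overlap. The 85 nuclear genes took 0.691% ± 0.016 (SD, n = 3) of gene counts in Ctrl+vehicle, 0.759% ± 0.00787 with FGF2 alone and 0.752% ± 0.0128 after knockdown at d2.5. At d5 they took 0.524% ± 0.0177, 0.623% ± 0.0165 and 0.589% ± 0.0114. Ratios of mitochondrial to nuclear counts were 1.12 ± 0.254 in Ctrl+vehicle and 0.568 ± 0.0352 in Ctrl+FGF2 at d2.5, and 1.28 ± 0.125 and 0.853 ± 0.0268 at d5. With 3 libraries against 3, an exact two-sided permutation test cannot give a p under 0.1, and it gave 0.1 (adjusted over 6 comparisons 0.1 for the mitochondrial and 0.12 for the nuclear sum) in every comparison but the nuclear sum under knockdown at d2.5, where p = 0.4. Day was also the labelled batch, so levels were not compared between days.

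**Figure D1:**
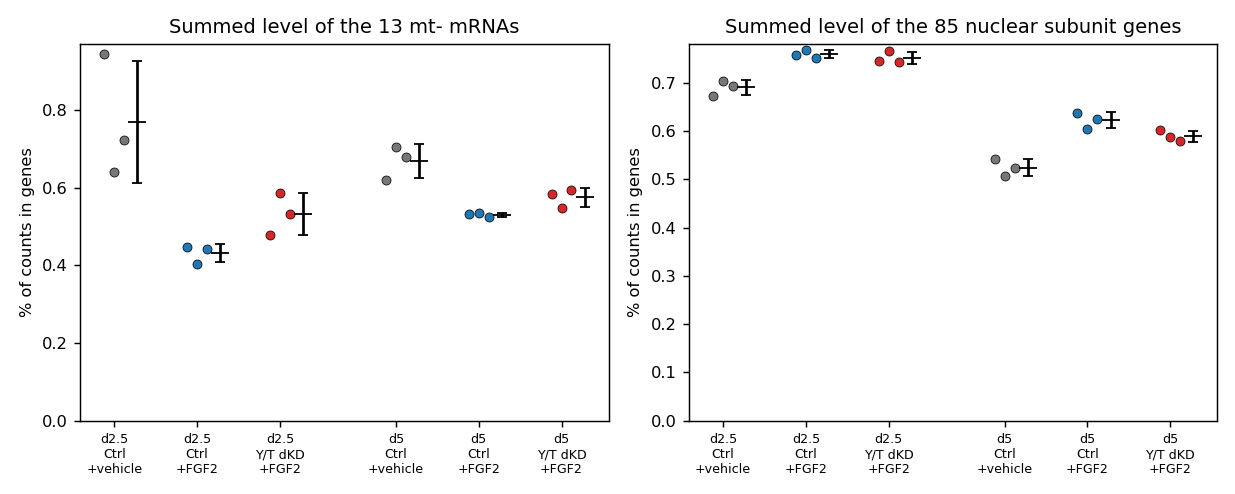
Summed counts of the 13 mitochondrial mRNAs (left) and the 85 nuclear subunit genes (right) as a percentage of all gene counts, with 1 point per library and the mean ± SD of 3 libraries beside it. On both days the Ctrl+FGF2 libraries are lowest for the mitochondrial genes and lie above all Ctrl+vehicle libraries for the nuclear genes.

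The FGF2 effect on single genes at d2.5 was tested first. All 13 mitochondrial mRNAs were called lower (adjusted p under 0.05), where 34.1% of the 13677 genes tested were called lower and 33.5% higher. Their median log2 fold change was -0.88, a level 0.542 times that of Ctrl+vehicle, and the median over all genes tested was 0.00. For mt-Nd5, the complex I subunit at the end of the proton-pumping arm, the libraries held 1106, 741 and 821 CPM in Ctrl+vehicle, 446, 411 and 466 CPM with FGF2 alone and 506, 618 and 561 CPM after knockdown with FGF2. All Ctrl+FGF2 libraries were lower than all Ctrl+vehicle libraries, with a log2 fold change of -1.01 ± 0.08 SE, adjusted p = 1.51e-12. The strongest fall was that of mt-Nd6, also of complex I and the only member encoded on the other strand of mitochondrial DNA, from 67.4, 45 and 57.9 to 28, 25 and 25.8 CPM (-1.11 ± 0.10 SE, adjusted p = 1.61e-11). For mt-Co1, the catalytic subunit of complex IV and the most abundant member in counts, the values were 3425, 2286 and 2662 CPM in Ctrl+vehicle and 1559.7, 1431 and 1546 CPM in Ctrl+FGF2 (-0.88 ± 0.08 SE, adjusted p = 1.38e-11). In mt-Cytb, the cytochrome b of complex III, they were 1295, 871 and 968 and 594, 538 and 585 CPM (-0.87 ± 0.08 SE, adjusted p = 5.76e-11). These groups did not overlap for any of the 13 genes, a count given here without its share over all genes. The 13 mRNAs are cut from long transcripts, so they are not independent observations. Apart from mt-Nd3, whose fall was -0.23 ± 0.09 (SE, adjusted p = 0.0175), the log2 fold changes lay between -1.11 and -0.66.

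Library 1 of Ctrl+vehicle at d2.5 held the highest mitochondrial share. Without it all 13 genes were still called lower, and their median was -0.71 on the log2 scale. The call of mt-Nd3 was lost when Ctrl+vehicle replicate 2 or Ctrl+FGF2 replicate 1 was left out, and with DESeq2. The libraries were made from poly(A) RNA, so a change in the number of mitochondrial mRNAs and a change in their short poly(A) tails cannot be told apart. mt-Nd6 is known for having hardly any tail.

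Several of the mitochondrial genes have an almost identical copy in the nuclear genome. A block of 7 annotated pseudogenes on the minus strand of chromosome 1 (GRCm38, chr1:24611535-24616197) matched mt-Co2, mt-Atp6, mt-Co3 and mt-Nd4l over 681, 678, 783 and 294 bases without a mismatch. It matched mt-Nd3 over 345 bases with 1 mismatch, mt-Nd4 over 876 bases with 0 mismatches and mt-Co1 over 492 bases with 6. Bases 71 to 130 of mt-Atp6, the proton channel subunit of complex V, are shown with the same stretch of its copy Gm10925 because a read that lies wholly within it matches both genomes. All letters are in lower case because none differs.
mt-Atp6: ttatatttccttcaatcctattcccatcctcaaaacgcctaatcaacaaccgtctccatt
Gm10925: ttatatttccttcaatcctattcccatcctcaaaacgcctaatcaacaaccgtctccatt
Reads with several places were not counted, so the levels of all 7 genes leave out such reads, least so for mt-Nd4 and mt-Co1, with 61.5% and 39.8% of their 75-base stretches shared. Only annotated transcripts were searched. On mitochondrial DNA mt-Atp8 starts between mt-Co2 and mt-Atp6, and the bases between their copies in the block were not searched, so mt-Atp8 may leave out such reads too. In mt-Atp6 the libraries held 88.4, 67.9 and 66.5 CPM in Ctrl+vehicle and 41.6, 38.9 and 37.1 CPM in Ctrl+FGF2 at d2.5, far under the values of mt-Co1. The 7 pseudogenes together held 360 ± 53.7 CPM (SD, n = 3) in Ctrl+vehicle, 194 ± 6.01 CPM with FGF2 alone and 246 ± 18.1 CPM after knockdown at d2.5, the same order as the mitochondrial genes. Members with no 75-base stretch in the block, such as mt-Nd1, mt-Nd6 and mt-Cytb, fell as well, with -0.85 for mt-Nd1.

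Nuclear members were split in direction at d2.5. Of 76 tested, 21 were called higher (27.6%) and 13 lower (17.1%), beside 33.5% and 34.1% of all genes, and their median log2 fold change was 0.02. By complex, 5 of 8 tested rose in complex III and 7 of 17 in complex V, while complex I had 6 higher and 10 lower of 36. The largest rise was that of Uqcrfs1 (GRCm38, chr13:30540308-30545362), the Rieske iron-sulfur protein of complex III, with 71, 76 and 77.1 CPM in Ctrl+vehicle and 97.4, 94.7 and 94.7 CPM in Ctrl+FGF2. No library of one group reached into the other, and the log2 fold change was 0.36 ± 0.04 SE, adjusted p = 1.63e-08. Atp5b (GRCm38, chr10:128083273-128090391) followed, with 967, 1057 and 1022 CPM against 1292, 1303 and 1286 CPM (0.35 ± 0.03 SE, adjusted p = 1.24e-11). Again the groups did not overlap. Its F1 partners Atp5a1 (0.19 ± 0.03), Atp5c1 (0.25 ± 0.04) and Atp5d (0.22 ± 0.04) and the core protein Uqcrc1 (0.30 ± 0.04) were also called higher. These 4 genes were chosen after their values were seen.

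Small accessory subunits of complex I led the nuclear falls. Ndufa3 (GRCm38, chr7:3617373-3620327), an accessory subunit of complex I, held 26.4, 24.1 and 25.7 CPM in Ctrl+vehicle, 18.3, 20.4 and 17.6 CPM with FGF2 alone and 18.2, 18 and 14.7 CPM after knockdown with FGF2. All Ctrl+FGF2 libraries were lower than all Ctrl+vehicle libraries (-0.44 ± 0.08 SE, adjusted p = 2.39e-05). After it came Ndufa1 with -0.29 ± 0.07 and Ndufa13 with -0.27 ± 0.05, both accessory subunits and both named after their values were seen. No call was made for 2 of the core subunits chosen to stand for their complex, with 0.05 ± 0.03 (SE, adjusted p = 0.168) for Sdha, the flavoprotein of complex II, and -0.05 ± 0.04 (SE, adjusted p = 0.233) for Cox4i1, the largest nuclear subunit of complex IV. Ndufs1, the large iron-sulfur core subunit of complex I, was called higher (0.08 ± 0.04 SE, adjusted p = 0.0475), a call that was lost under 13 alternative settings.

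**Figure D2:**
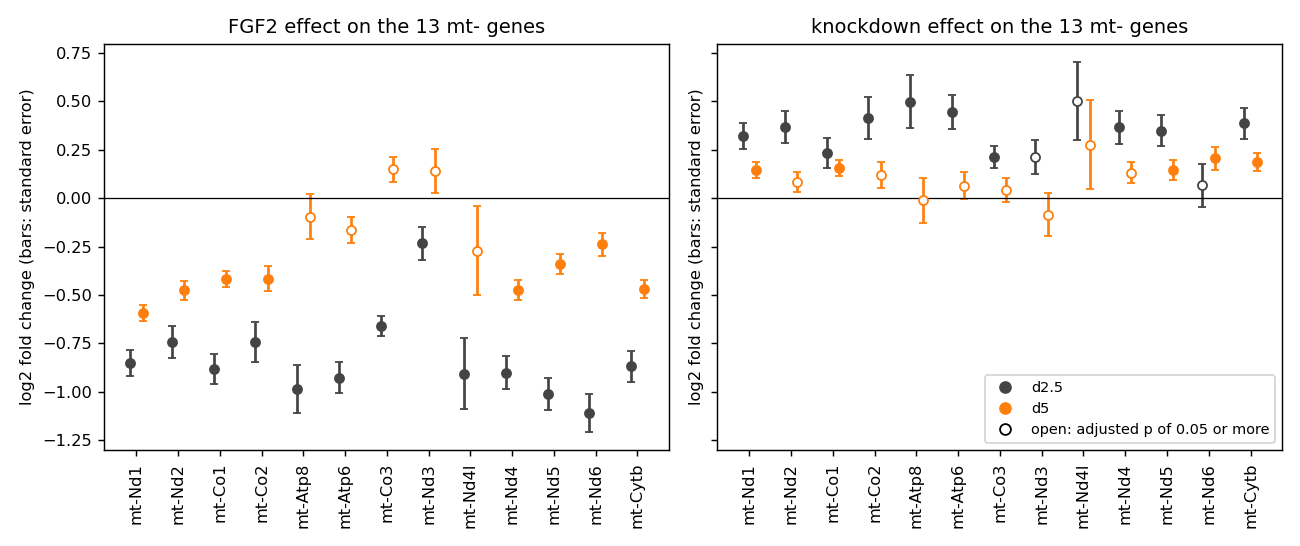
Log2 fold changes of the 13 mitochondrial mRNAs, in their order on mitochondrial DNA, for the FGF2 effect (left) and the knockdown effect (right), with standard errors. Dark points are d2.5 and orange points d5, and filled points have an adjusted p under 0.05. With FGF2 all 13 d2.5 points are filled and under 0, and 8 of the d5 points are.

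At d5 the FGF2 effect on mitochondrial mRNAs was called in fewer genes. Of the 13, 8 were called lower, where 23.7% of 13304 genes tested were called lower and 23.5% higher, and the median log2 fold change was -0.34. None was called higher by edgeR or DESeq2, and 1 (mt-Co3) was higher at an unadjusted p under 0.05. For mt-Nd1, a complex I subunit, the libraries held 1031, 1124 and 1103 CPM in Ctrl+vehicle and 706, 738 and 716 CPM in Ctrl+FGF2, without overlap (-0.59 ± 0.04 SE, adjusted p = 4.53e-09). The 4 genes with no change called beside mt-Co3 were mt-Atp8, mt-Atp6, mt-Nd3 and mt-Nd4l. These 5 neighbours on mitochondrial DNA include 4 with at least 97.8% of their 75-base stretches in the chromosome 1 block. The part of the block where a copy of mt-Atp8 would lie was not searched. In mt-Co3, a core subunit of complex IV, the values were 73.7, 88 and 89.3 CPM in Ctrl+vehicle and 93, 93.7 and 92.1 CPM in Ctrl+FGF2 (0.15 ± 0.06 SE, adjusted p = 0.0692), with all Ctrl+FGF2 libraries above all Ctrl+vehicle libraries and Ctrl+vehicle replicate 1 lowest. Leaving out that library moved the median over the 13 genes to -0.47. With an offset for GC content, added after the data were seen, the median was -0.23, with 7 genes lower and 1 higher.

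Nuclear members rose at d5. Of 77 tested, 47 were called higher (61.0%) and 3 lower (3.90%), beside 23.5% and 23.7% of all genes, and their median log2 fold change was 0.17. DESeq2 called fewer, with 33 higher and 1 lower. Each complex took part, with 21 of 36 tested higher in complex I, 2 of 4 in complex II, 6 of 8 in complex III, 9 of 12 in complex IV and 9 of 17 in complex V. The largest rise was that of Ndufa7 (GRCm38, chr17:33824572-33838317), an accessory subunit of complex I, from 36.8, 35.6 and 39.6 to 55.1, 55.5 and 56.1 CPM (0.57 ± 0.06 SE, adjusted p = 2.64e-07). Next was Ndufa3, from 21.1, 19.9 and 22 to 29.2, 29.7 and 31.6 CPM (0.53 ± 0.07 SE, adjusted p = 5.74e-06). In both genes every Ctrl+FGF2 library was above every Ctrl+vehicle library. The 3 members called lower were Ndufb2 (-0.43 ± 0.15), Ndufs8 (-0.23 ± 0.07) and Cox7a2l (-0.12 ± 0.05), which were named because they were so few. Leaving out 1 library changed the count of lower calls to between 0 and 4. Among core subunits, Cox4i1 rose by 0.23 ± 0.04 and Uqcrfs1 by 0.17 ± 0.06, while Sdha, Ndufs1 and Atp5b stood at 0.10 ± 0.04, 0.05 ± 0.05 and -0.02 ± 0.04 without a call. The rise of Cox4i1 was not called with the offset for GC content, where it was 0.03.

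Genes of higher GC content tended to rise more with FGF2 at d5. Across the 77 nuclear members Spearman's rho between transcript GC and log2 fold change was 0.27, and across all 11556 protein-coding genes tested it was 0.34, which describes genes in shared libraries and was not tested. With the GC offset 40 nuclear members were called higher and 3 lower, with a median of 0.15.

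**Figure D3:**
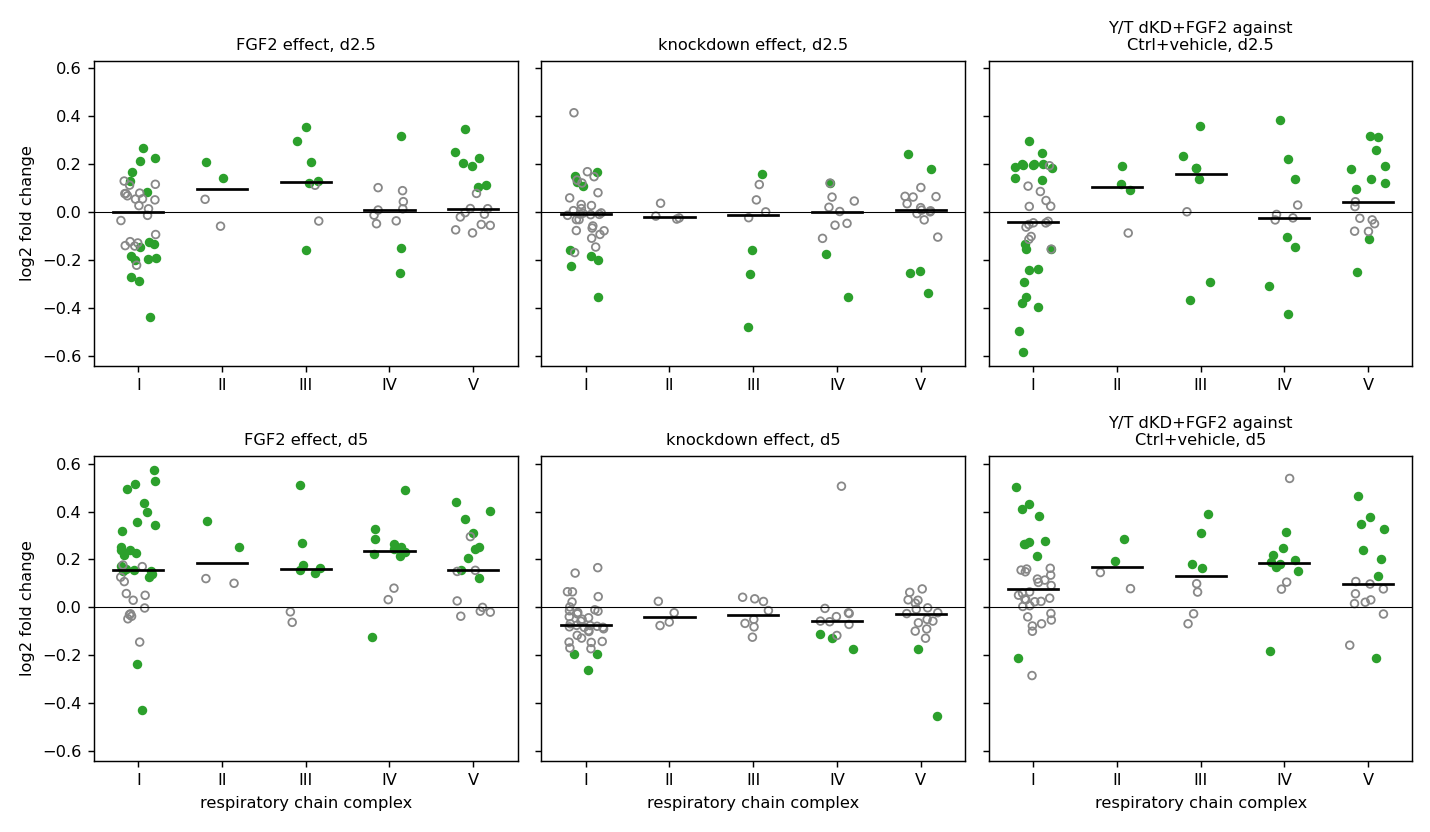
Log2 fold changes of the nuclear members that passed the filter, by respiratory chain complex, for the 3 comparisons of each day. Filled green points have an adjusted p under 0.05, open points do not, and the bar is the median of the complex. With FGF2 the medians of all 5 complexes lie between 0.16 and 0.24 at d5, and complex I holds the lowest points at d2.5.

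The change of the FGF2 effect from d2.5 to d5 was then tested directly, in a fit of all 18 libraries. Because day was also the labelled batch, a change of an effect with day and one with batch cannot be told apart. Of the 77 nuclear members tested, 33 had a more positive effect at d5 and 10 a more negative one, beside 31.8% and 29.1% of 14198 genes. With the GC offset these counts were 21 and 14, and with DESeq2 they were 23 and 11. In the mitochondrial group 10 of 13 had a more positive effect at d5, with a median difference over the 13 of 0.44. For mt-Co3 and mt-Nd3 the d5 values were above 0 (0.15 ± 0.06 and 0.14 ± 0.11, neither called), and for the other 8 they were below 0 but nearer to it than at d2.5. Without Ctrl+vehicle replicate 1 of d2.5 that count was 8.

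Ndufa3 turned direction, from a fall at d2.5 to a rise at d5, and its difference of 0.94 ± 0.11 SE, adjusted p = 1.16e-08, was the largest of all members. Of the 76 nuclear members tested on both days 11 fell at d2.5 and rose at d5 (14.5%) and 1 did the reverse (1.32%), beside 11.8% and 11.7% of the 12845 genes tested on both days, so the share that fell and then rose was near the background. Besides Ndufa3 the 11 included the complex I genes Ndufa1, Ndufa4 (found with complex IV), Ndufa7, Ndufa13, Ndufb11 and Ndufc1, the complex III gene Uqcrh, and Cox6a1 and Cox6c of complex IV, listed after their values were seen. Ndufa7, for example, stood at -0.20 ± 0.05 at d2.5 and 0.57 ± 0.06 at d5. Ndufs8 (GRCm38, chr19:3908863-3912774), an iron-sulfur core subunit of complex I, turned the other way. It held 42.5, 45.2 and 44.8 CPM in Ctrl+vehicle and 53.1, 53.8 and 52.6 CPM in Ctrl+FGF2 at d2.5, and 37.1, 32 and 33.6 and 31.4, 27.3 and 28.4 CPM at d5. The Ctrl+FGF2 libraries were all higher at d2.5 and all lower at d5, and the difference was -0.53 ± 0.09 SE, adjusted p = 4.10e-06. The rise of Atp5b at d2.5 was larger than its value of -0.02 ± 0.04 at d5, which was not called, and the difference passed the test (-0.39 ± 0.05 SE, adjusted p = 1.11e-07).

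**Figure D4:**
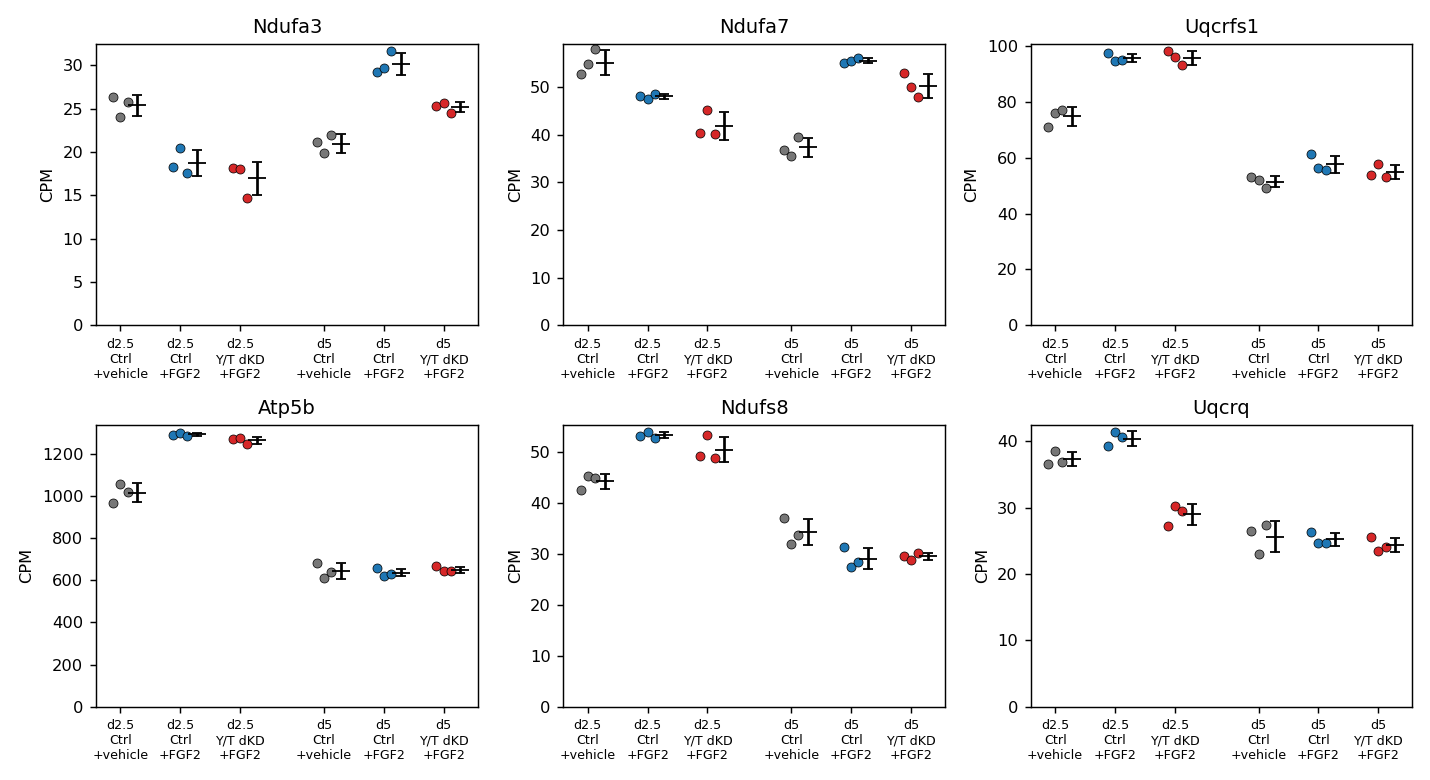
CPM of 6 nuclear members named by the rule, 1 point per library, with the mean ± SD of 3 libraries beside it. Ctrl+FGF2 points of Ndufa3 lie under Ctrl+vehicle at d2.5 and above it at d5, those of Ndufs8 do the reverse, and Uqcrq is lowest in Y/T dKD+FGF2 at d2.5.

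Promoter windows are shown for Ndufa3 and Ndufs8, the members with the most positive and the most negative change of the FGF2 effect between days. That of Atp5k, a small subunit of complex V, was chosen because its window held matches to 3 of the factors. Each holds the 250 bases before and 50 after the RefSeq start of the gene (GRCm38.p6, gene strand). Capitals mark exact matches on either strand to NRF1 (GCATGCGC), the ETS factor GABPA (CCGGAAG), YY1 (AAGATGGC) and ERR (AAGGTCA), factors known for regulating respiratory chain genes. The windows lie at chr7:3617123-3617422 on the plus strand, chr19:3912725-3913024 on the minus strand and chr5:108434350-108434649 on the minus strand.
Ndufa3: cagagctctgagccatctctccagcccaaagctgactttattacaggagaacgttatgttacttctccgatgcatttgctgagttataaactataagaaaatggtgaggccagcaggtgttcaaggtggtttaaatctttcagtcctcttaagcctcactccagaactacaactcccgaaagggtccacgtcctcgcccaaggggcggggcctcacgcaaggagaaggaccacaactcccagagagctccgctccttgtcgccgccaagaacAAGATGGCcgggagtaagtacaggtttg
Ndufs8: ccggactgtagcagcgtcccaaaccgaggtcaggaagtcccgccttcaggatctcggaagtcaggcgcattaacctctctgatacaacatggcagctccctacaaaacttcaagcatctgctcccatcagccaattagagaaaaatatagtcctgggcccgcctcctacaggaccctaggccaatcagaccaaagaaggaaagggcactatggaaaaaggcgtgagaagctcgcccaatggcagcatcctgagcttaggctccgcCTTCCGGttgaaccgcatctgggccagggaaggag
Atp5k: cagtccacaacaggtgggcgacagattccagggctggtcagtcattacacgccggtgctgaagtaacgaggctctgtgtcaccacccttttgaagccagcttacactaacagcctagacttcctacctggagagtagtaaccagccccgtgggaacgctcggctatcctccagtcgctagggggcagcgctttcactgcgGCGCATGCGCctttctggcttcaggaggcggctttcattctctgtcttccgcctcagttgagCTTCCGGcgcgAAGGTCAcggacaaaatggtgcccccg
Ndufa3 held a YY1 match, Ndufs8 a GABPA match, and Atp5k matches to NRF1, GABPA and ERR. Of the 85 nuclear members 68 had a window. The NRF1 letters were found in 14.7% of them and in 3.05% of the 27025 genes with a window. GABPA letters stood in 23.5% and 9.93%, YY1 in 14.7% and 3.19%, and ERR in 11.8% and 5.38%. The letters of TEAD (CATTCC), the DNA-binding partner of Yap and Taz, were in 10.3% of the members and 16.6% of all genes. A gene with several windows was counted once, if any held the letters, and the NRF1 matches of Atp5k overlap each other on opposite strands. A match describes the letters only.

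Knockdown of Yap and Taz moved the mitochondrial mRNAs upwards. At d2.5, 10 of 13 were called higher, where 10.8% of 13677 genes were called higher and 13.6% lower, with a median log2 fold change of 0.37. Y/T dKD+FGF2 libraries of mt-Nd1 held 925, 1082 and 993 CPM against 824, 753 and 828 CPM in Ctrl+FGF2, with no overlap (0.32 ± 0.07 SE, adjusted p = 0.0006). In mt-Atp6 they held 46.2, 57.6 and 55.6 against 41.6, 38.9 and 37.1 CPM, also with no overlap (0.44 ± 0.09 SE, adjusted p = 0.000325). No call was made for mt-Nd3 (0.21 ± 0.09 SE, adjusted p = 0.0769), mt-Nd4l (0.50 ± 0.20 SE, adjusted p = 0.0686) or mt-Nd6, whose libraries held 27, 24 and 31.5 against 28, 25 and 25.8 CPM and overlapped (0.07 ± 0.11 SE, adjusted p = 0.722). Counted without strand, where reads of the opposite strand are included, mt-Nd6 was called at 0.32. DESeq2 called 3 of the 13 higher and the GC offset left 4, with a median of 0.25.

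The nuclear members had no common direction under knockdown at d2.5. Of 76 tested, 8 were called higher (10.5%) and 13 lower (17.1%), near the background of 10.8% and 13.6%, with a median of -0.00. The largest fall was that of Uqcrq (GRCm38, chr11:53427922-53430831), a small subunit of complex III, with 39.2, 41.4 and 40.7 CPM with FGF2 alone and 27.2, 30.2 and 29.5 CPM after knockdown with FGF2. The groups did not overlap (-0.48 ± 0.06 SE, adjusted p = 9.00e-07). Ndufa11 (GRCm38, chr17:56717767-56722141), a membrane subunit of complex I, held 20.5, 23.1 and 20.9 and 16.2, 18.8 and 15.3 CPM (-0.36 ± 0.09 SE, adjusted p = 0.00307), but was not called with unstranded counts or with the GC offset. Genes of higher GC content tended to have lower values here, with a Spearman rho of -0.53 over the 76 nuclear members and -0.53 over 11578 protein-coding genes. Transcript GC ran from 31.9% (mt-Atp8) to 41.1% (mt-Nd4l) in the mitochondrial members and from 36.7% (Cox7b2) to 63.3% (Atp5g2) in the nuclear ones. The part of GC content in the rise of the mitochondrial mRNAs was not tested. With the GC offset 5 nuclear members were called higher and 6 lower.

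At d5 fewer mitochondrial mRNAs were called under knockdown. Of the 13 mitochondrial mRNAs 5 were called higher, where 15.6% of 13304 genes were called higher and 16.1% lower, with a median log2 fold change of 0.13. For mt-Cytb the libraries held 775, 806 and 762 CPM in Ctrl+FGF2 and 904, 846 and 915 CPM in Y/T dKD+FGF2, with no overlap (0.18 ± 0.05 SE, adjusted p = 0.00609). The count was 2 to 6 when 1 library was left out, and 0 in a fit of all 18 libraries. Among 77 nuclear members edgeR called 0 higher, where 1 had an unadjusted p under 0.05 and DESeq2 called 0, and 8 lower (10.4%). The largest falls were Atp5s, named for an ATP synthase coupling factor, with 9.17, 11.5 and 9.75 against 7.06, 7.62 and 7.63 CPM (-0.45 ± 0.13 SE, adjusted p = 0.0105), and Ndufa3, with 29.2, 29.7 and 31.6 against 25.4, 25.7 and 24.5 CPM (-0.26 ± 0.07 SE, adjusted p = 0.0056). In neither gene did the groups overlap. Leaving out Ctrl+vehicle replicate 2 raised the count of lower calls to 13 and leaving out Y/T dKD+FGF2 replicate 3 cut it to 3, and leaving out Ctrl+FGF2 replicate 2 ended the call of Atp5s.

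The knockdown effect itself differed between days for few members. Of 77 nuclear members 4 had a more positive effect at d5 and 6 a more negative one, beside 11.6% and 9.37% of 14198 genes, and of the mitochondrial members mt-Atp6 was more negative (-0.38 ± 0.13 SE, adjusted p = 0.0348). Uqcrq had the largest difference among the members called (0.43 ± 0.09 SE, adjusted p = 0.00142), with d5 values of 26.4, 24.7 and 24.7 CPM in Ctrl+FGF2 and 25.6, 23.5 and 24 CPM in Y/T dKD+FGF2 that overlapped. The mt-Atp6 call was lost under 10 alternative settings.

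Against cells without FGF2, Y/T dKD+FGF2 cells remained apart. At d2.5, 12 of 13 mitochondrial mRNAs were called lower than in Ctrl+vehicle, with a median of -0.48, where 35.7% of 13677 genes were lower and 34.1% higher. The exception was mt-Nd3, with -0.02 ± 0.09 (SE, adjusted p = 0.843). mt-Nd6 had the largest fall (-1.04 ± 0.10 SE, adjusted p = 8.67e-11). Nuclear members were called higher in 30 and lower in 19 of 76, and Cox5a, a nuclear subunit of complex IV, led the rises with 51.6, 54.5 and 56.1 CPM in Ctrl+vehicle and 68.9, 71.1 and 71.3 CPM in Y/T dKD+FGF2 (0.38 ± 0.05 SE, adjusted p = 2.68e-08). The largest nuclear fall was again in Ndufa3 (-0.58 ± 0.09).

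At d5, 7 of the 13 were lower and 1, mt-Co3, was higher (0.19 ± 0.06 SE, adjusted p = 0.0246), where 21.1% of 13304 genes were lower and 20.7% higher. Its call was lost without Ctrl+vehicle replicate 1 or without Y/T dKD+FGF2 replicate 1 or 3. Of 77 nuclear members 30 were called higher and 3 lower. Ndufs7, an iron-sulfur core subunit of complex I, had 14.6, 13 and 13.8 CPM in Ctrl+vehicle and 20.1, 20.8 and 17.5 CPM in Y/T dKD+FGF2, without overlap (0.50 ± 0.09 SE, adjusted p = 0.000332). Atp5g2, 1 of 3 genes that encode subunit c of the ATP synthase ring, had 49.4, 52.7 and 53.4 and 73.4, 75.2 and 65.9 CPM (0.47 ± 0.06 SE, adjusted p = 5.61e-06).

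Subunits with several isoform genes were read as sets. In O9-1 cells the ubiquitous forms carried nearly all counts. Cox4i1 stood at 149 RPKM and the lung-enriched Cox4i2 at 0.0782 RPKM, Cox6a1 at 139 and the muscle form Cox6a2 at 1.23 RPKM, and Cox6b1 at 111 and the testis form Cox6b2 at 0.0933 RPKM. Cox6a2 passed the filter at d5 alone, with 1.13, 0.776 and 1.34 CPM in Ctrl+vehicle, 0.951, 1.46 and 0.848 CPM with FGF2 alone and 1.28, 1.87 and 1.53 CPM after knockdown, and no call was made for FGF2 (0.03 ± 0.32 SE, adjusted p = 0.945) or knockdown (0.51 ± 0.30 SE, adjusted p = 0.215). Cox7a2 stood at 59 RPKM and the muscle form Cox7a1 at 0.19 RPKM. Cox8a had 138 RPKM, while Cox8b had 2 counts over all libraries and Cox8c 0. Ndufa4, which is found with complex IV, had 68.5 RPKM and its hypoxia-linked relative Ndufa4l2 0.195 RPKM.

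The 3 subunit c genes encode the same mature protein, and Atp5g1, Atp5g2 and Atp5g3 stood at 10.3, 48.5 and 62.2 RPKM. With FGF2 at d2.5 their log2 fold changes were -0.00 ± 0.05, 0.20 ± 0.05 and 0.10 ± 0.04, of which the latter pair were called. At d5 all 3 were called higher, with 0.25 ± 0.06, 0.40 ± 0.06 and 0.21 ± 0.04. Under knockdown at d2.5 Atp5g1 and Atp5g2 were called lower (-0.25 ± 0.06 and -0.25 ± 0.05), while Atp5g3 stood at 0.04 ± 0.04 (SE, adjusted p = 0.574). Differences between isoforms were not tested. Cox6a1, the adapter-like small subunit of complex IV, had 98.6, 111 and 105 CPM in Ctrl+vehicle and 88.3, 89.7 and 85.5 CPM in Ctrl+FGF2 at d2.5, and 96.9, 90.3 and 91.9 and 115, 116 and 118 CPM at d5. It was lower in all FGF2 libraries at d2.5 and higher in all of them at d5.

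Of 18 regulators of mitochondrial gene expression 13 were called higher and 1 lower with FGF2 at d2.5, beside 33.5% and 34.1% of all genes. Tfam, which packages mitochondrial DNA and starts its transcription, held 38.6, 41.9 and 42 CPM in Ctrl+vehicle and 58.2, 54.9 and 60.1 CPM in Ctrl+FGF2 (0.50 ± 0.05 SE, adjusted p = 1.46e-09). Nrf1, nuclear respiratory factor 1, held 27.2, 29.3 and 26.8 and 39.1, 44.5 and 41.3 CPM (0.58 ± 0.06 SE, adjusted p = 2.50e-09). In neither did the groups overlap. Tfb2m (0.28 ± 0.06), Tfb1m (0.60 ± 0.14), the helicase gene Twnk (0.46 ± 0.06), Gabpa (0.29 ± 0.04) and Pprc1 (0.43 ± 0.04) were also called higher. No call was made for the mitochondrial RNA polymerase Polrmt (0.09 ± 0.06 SE, adjusted p = 0.238) or for Esrra (0.10 ± 0.11 SE, adjusted p = 0.443), which encodes the nuclear receptor ERR alpha.

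The 1 regulator that fell was Ppargc1a, the coactivator PGC-1 alpha, known as a driver of mitochondrial biogenesis. It held 3.32, 2.71 and 3.23 CPM in Ctrl+vehicle at d2.5, 0.15, 0.31 and 0.354 CPM with FGF2 alone and 0.0869, 0.248 and 0.251 CPM after knockdown with FGF2, a log2 fold change of -3.45 ± 0.33 SE, adjusted p = 9.85e-11, with FGF2. These values rest on 123, 11 and 7 counts over 3 libraries each. At d5 it held 11.6, 12.8 and 12.9 CPM in Ctrl+vehicle and 18.5, 22.9 and 20.8 CPM in Ctrl+FGF2, now higher in every FGF2 library (0.74 ± 0.09 SE, adjusted p = 5.15e-06). The difference between days was 4.16 ± 0.32 SE, adjusted p = 2.24e-12. At d5, where 23.5% of all genes were called higher and 23.7% lower, it was the 1 regulator called higher, and Pprc1 (-0.41 ± 0.07), Gabpa (-0.24 ± 0.04) and Mterf3 (-0.26 ± 0.10) were called lower.

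Under knockdown 1 regulator was called higher and 3 lower at d2.5, beside 10.8% and 13.6% of all genes. At d5 Pprc1 and Polg, the mitochondrial DNA polymerase gene, were called higher, beside 15.6% of all genes. Polrmt fell from 27.9, 29.2 and 30.2 to 24.4, 23.6 and 23.1 CPM at d2.5, without overlap (-0.30 ± 0.07 SE, adjusted p = 0.00159). Pprc1 was lower at d2.5 (-0.16 ± 0.04) and higher at d5 (0.43 ± 0.07), and the difference was called (0.58 ± 0.08 SE, adjusted p = 2.80e-06).

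**Figure D5:**
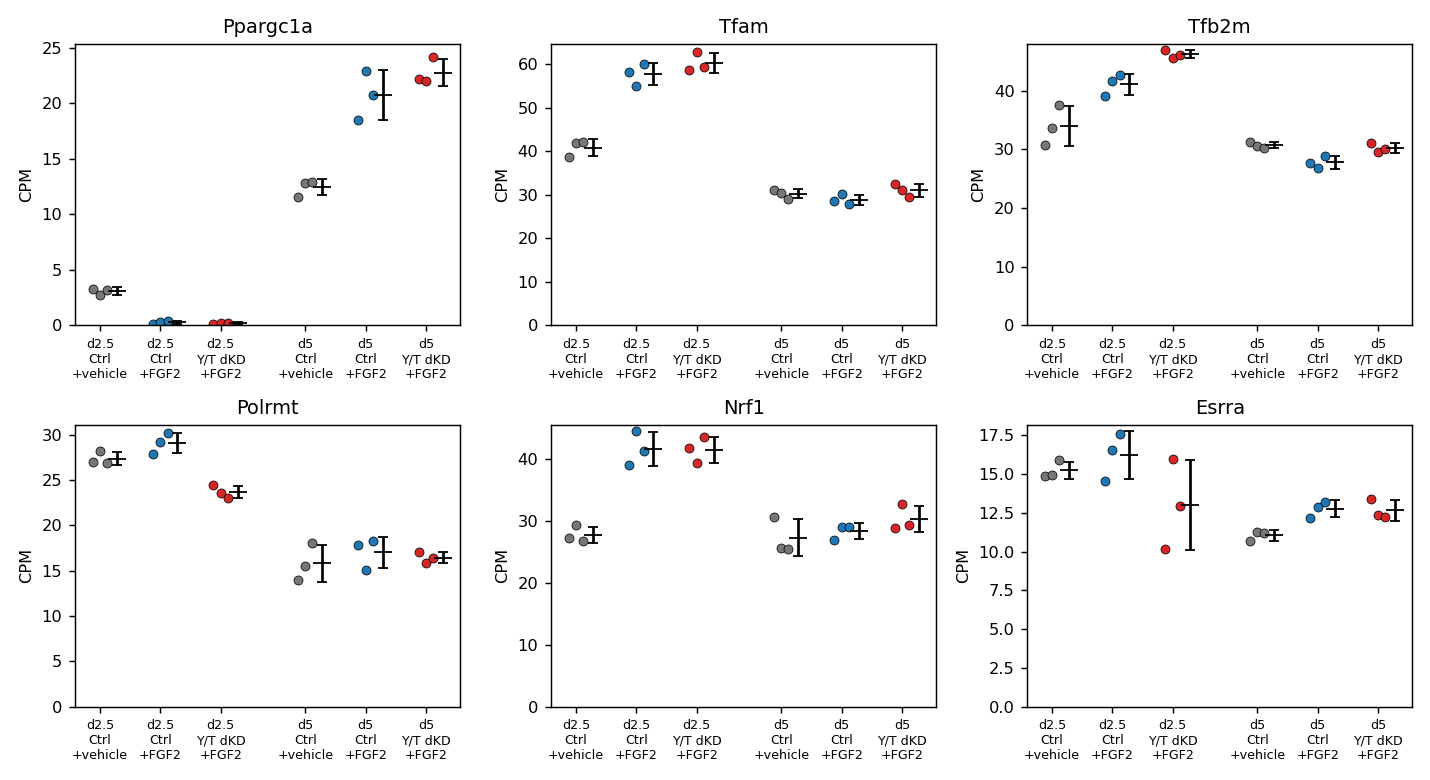
CPM of 6 regulators of mitochondrial gene expression, 1 point per library, with the mean ± SD of 3 libraries beside it. Ppargc1a is near 0 in both FGF2 groups at d2.5 and above Ctrl+vehicle at d5, while Tfam, Tfb2m and Nrf1 are higher with FGF2 at d2.5.

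Other genes that mitochondria need to build the chain were counted from lists. Over all genes tested, 33.5% were higher and 34.1% lower with FGF2 at d2.5, and 23.5% and 23.7% at d5. Of 77 mitochondrial ribosomal protein genes tested, which translate the 13 mRNAs, 48 were higher and 3 lower with FGF2 at d2.5 (median 0.20), and 10 higher and 4 lower at d5 (median 0.05). Assembly factors of the complexes were higher in 16 (32%) and lower in 12 (24%) of 50 at d2.5, and higher in 5 and lower in 12 at d5, so the shares higher at d2.5 and lower at d5 were near the background. For the tricarboxylic acid cycle the counts were 10 higher and 4 lower of 18 at d2.5, and 6 and 4 at d5. Carriers and cytochrome c were higher in 10 and lower in 3 of 18 at d2.5, and in 4 and 3 at d5. Under knockdown none of these lists had more than 6 genes called in either direction on either day. Over all genes 10.8% were higher and 13.6% lower at d2.5, and 15.6% and 16.1% at d5. Above these shares at d5 were 5 of 18 tricarboxylic acid cycle genes called lower (27.8%) and 4 of 18 carriers called higher (22.2%). The other shares under knockdown were near the background or under it.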

How the data were processed

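Poly(A) RNA of 18 libraries was sequenced after a SMARTER mRNA-seq preparation. The authors deposited 1 table of raw counts per library, with a row per gene. The submitters' processing notes name FastQC, STAR, Picard, featureCounts and the mm10 build, without versions or order. Of the deposited count columns the reverse-strand one was used, since it held 96.0% to 96.6% of the stranded counts. Rows that name no gene held 27.0% to 34.4% of each library and were left out. Of 55335 identifiers 55154 were named from GENCODE M21.

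Counts were fitted with edgeR 4.0.16 (R 4.3.3, limma 3.58.1), with TMM factors, filterByExpr and the quasi-likelihood test, on the 9 libraries of each day. The change of an effect between days was fitted on all 18. Called means a Benjamini-Hochberg adjusted p under 0.05 over all genes tested. CPM are TMM-scaled counts and SE is the log2 fold change divided by the root of F. The fits were tested on simulated data. Alternatives included DESeq2 1.42.0, and the GC offset was added after the data were examined. Counting error and library number limit precision, with 10377151 to 14698525 gene counts per library.

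Members and lists were chosen with earlier results of these data known. Genes were named as the 2 largest rises and falls among members called in each comparison whose log2 CPM averaged 1 or more, the largest difference of each sign between days, the 13 mitochondrial genes, 1 core subunit per complex, isoform sets and the regulators.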

Additional observations from a re-analysis of the deposited data

Results flagged for a closer look

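By the interaction term of the fit of all 18 libraries, the effect of FGF2 was more positive at d5 in 33 of 77 nuclear members, more negative in 10, and more positive in 10 of 13 mitochondrial mRNAs, beside 31.8% more positive and 29.1% more negative of all genes. The nuclear calls in both directions together were thus no more frequent than over all genes. DESeq2 called 23 nuclear members more positive and 11 more negative. A change with day and one with the labelled batch cannot be told apart here. Among named nuclear genes the difference in log2 fold change was 0.94 for Ndufa3, 0.25 for Cox4i1, -0.39 for Atp5b, -0.21 for Uqcrfs1 and -0.53 for Ndufs8. Among mitochondrial mRNAs it was 0.23 for mt-Nd1, 0.44 for mt-Co1, 0.86 for mt-Atp8, 0.74 for mt-Atp6, 0.78 for mt-Co3 and 0.35 for mt-Nd3. It was 0.40 for mt-Nd4, 0.65 for mt-Nd5, 0.85 for mt-Nd6 and 0.37 for mt-Cytb.

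The effect of knockdown differed between days in 4 nuclear members with a more positive and 6 with a more negative value at d5, and in 1 mitochondrial mRNA, beside 11.6% and 9.37% of all genes. The difference was 0.43 for Uqcrq and -0.38 for mt-Atp6.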

How the results depend on the processing

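Of 1160 recomputed counts, medians and summed levels 1087 stayed close to the reported value. Close left room for sizeable shifts in counts. With DESeq2, 33 instead of 47 nuclear members were higher with FGF2 at d5, which was taken as close. So were 23 instead of 33 nuclear members with a more positive FGF2 effect at d5. Nuclear medians near 0 changed sign where given here. Of 94 named gene results that were called, 58 were called in the same direction under all alternatives and 36 were not. At an adjusted p under 0.01, knockdown at d2.5 had 2 nuclear members higher and 8 lower, FGF2 at d5 had 0 nuclear members lower, and knockdown at d5 had 2 nuclear members lower and 2 mitochondrial higher. Against Ctrl+vehicle at d5, 0 mitochondrial mRNAs were then higher, and the knockdown effect was more negative at d5 in 3 nuclear and 0 mitochondrial members. With DESeq2 knockdown raised 3 mitochondrial mRNAs at d2.5, FGF2 lowered 1 nuclear member at d5, knockdown lowered 4 at d5, and 6 mitochondrial mRNAs had a more positive FGF2 effect at d5. With upper-quartile factors the nuclear median with FGF2 at d2.5 was -0.013, 1 mitochondrial mRNA was higher with FGF2 at d5, and the change of the FGF2 effect had 5 nuclear members more negative and a nuclear median of 0.24. The knockdown effect was then more negative at d5 in 2 mitochondrial mRNAs, as it was with at least 10 counts in every library. Without a filter it was so in 8, and 1 was higher with FGF2 at d5. With only the 2 groups compared, 13 nuclear members were higher under knockdown at d2.5, and in a fit of all libraries 0 mitochondrial mRNAs were higher under knockdown at d5. With TMM factors the summed level at d5 with FGF2 was 0.738 times that of Ctrl+vehicle for mitochondrial and 1.10 times for nuclear members, and 1.07 times for nuclear members after knockdown. The cause of these differences was not tested.

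With the GC offset, knockdown at d2.5 had 5 nuclear members higher and 6 lower, and 4 mitochondrial higher with a median of 0.25. FGF2 at d5 had 1 mitochondrial mRNA higher and a median of -0.23, knockdown at d5 had 3 higher, and the median after knockdown relative to Ctrl+vehicle at d5 was -0.095. The FGF2 effect became more positive at d5 in 21 nuclear members, with medians of 0.074 (nuclear) and 0.64 (mitochondrial), and the knockdown effect in 1 nuclear member, with 0 mitochondrial more negative. Cox4i1 turned sign, to 0.15 under knockdown and 0.16 against Ctrl+vehicle at d2.5, -0.0082 against Ctrl+vehicle at d5 and -0.024 in the change of the FGF2 effect.

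Leaving out 1 library gave 3 to 13 nuclear members higher under knockdown at d2.5 (3 without Ctrl+FGF2 replicate 3, 13 without Ctrl+vehicle replicate 1), and a nuclear median of -0.0096 to 0.033 for knockdown cells against Ctrl+vehicle. With FGF2 at d5 it gave 0 to 4 nuclear members lower (0 without Ctrl+vehicle replicate 1 or Ctrl+FGF2 replicate 2), 0 to 1 mitochondrial higher and a mitochondrial median of -0.47 to -0.28. Under knockdown at d5 it gave 3 to 13 nuclear members lower, a nuclear median of -0.067 to -0.033 and 2 to 6 mitochondrial higher (2 without Y/T dKD+FGF2 replicate 1 or 3). Against Ctrl+vehicle at d5 it gave 0 to 1 mitochondrial higher, and the knockdown effect was more negative at d5 in 0 to 4 (4 without Ctrl+vehicle replicate 1 of d2.5).

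Replicate numbers did not pair the libraries, since deviations of same-numbered libraries correlated by -0.082 to 0.157 over 18 pairs. With the replicate block 20 nuclear members were higher and 13 lower with FGF2 at d2.5, and 45 higher and 2 lower at d5.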
